A study of Mus musculus with 7 samples.

Results

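The genes described here are 42 genes of the T cell receptor complex and the signalling steps next to it. They were listed by name, with earlier results of these data known. They comprise 11 receptor and co-receptor chains (counting the scavenger receptor Cd163l1), 10 kinases and regulators of kinases, 9 adaptors, 7 effectors and 5 brakes. Their levels come from type 2 innate lymphoid cells, or ILC2s, which are lymphocytes that lack a rearranged antigen receptor and make type 2 cytokines in response to signals from tissue. All 42 had a probe on the array, 54 probes in all, and 40 of the 42 were bright enough to enter the test, out of 25346 tested genes.

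The 3 knockout samples and 4 wild-type samples were hybridised to 7 arrays that read 2 dyes. Knockout mice were Gfi1 GFP/GFP: a GFP cassette sits in the Gfi1 locus, reports the activity of its promoter and removes Gfi1 function. Each knockout sample pooled 6 mice, and each Gfi1 +/+ wild-type sample pooled 3 mice. Both genotypes received IL-25, a cytokine that expands ILC2s, once a day for 4 days, and on day 5 ILC2s were sorted from mesenteric lymph nodes as lineage-negative cells that carried Sca-1, ICOS, CD127 and c-Kit. The sorted cells then spent 6 days in culture with IL-2 at 50 ng/ml, IL-7 at 10 ng/ml and IL-25 at 50 ng/ml. No untreated mice and no uncultured cells were analysed here. On every array the red dye carried the ILC2 RNA and the green dye a commercial reference RNA pooled from mouse cells, so each value is a log2 ratio of sample over that reference. A ratio compares 1 gene between arrays and gives no order between genes.

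In a T cell, the antigen receptor chains bind the antigen and the CD3 chains and CD247 carry the signal inwards. The Src family kinases Lck and Fyn phosphorylate their tails, Zap70 docks there and phosphorylates the adaptors Lat and Lcp2, and kinases of the Tec family then activate Plcg1, which opens the branches to calcium, Ras and NF-kappaB. Phosphatases, ubiquitin ligases and diacylglycerol kinases limit the signal. ILC2s are known to express many of the inner parts of this machinery. Gfi1 is a zinc finger repressor of transcription that binds DNA at sites with the core AATC.

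Of the 40 tested members, limma called 10 at an adjusted p under 0.05, of which 7 rose and 3 fell. Over all tested genes 7.52% were called, 3.28% higher and 4.24% lower. The members were listed with earlier results of these data known, so these shares are not an independent comparison. Of the 7 that rose, Txk was detected in none of the wild-type samples, and Blk and Cd2 in 2 of 4. They entered the test only through the knockout arrays, where they were high, so their calls are not read as support. With only probes above background on all 7 arrays, 38 members were tested and 7 called, 4 higher and 3 lower, where 8.2% of all genes were called, 3.42% higher and 4.78% lower. Txk and Blk were then not tested, and Cd2, read by its other probe, was not called. Cd163l1, Cd2, Blk, Tec, Txk, Lck and Vav3 rose in Gfi1 knockout ILC2s, with Cd163l1 far ahead at 16.3-fold. Ptpn6, Ubash3b and Skap1, a phosphatase, a brake and an adaptor, fell by 1.33-fold to 1.66-fold. The other 30 tested members, the tested CD3 and CD8 chains, Cd4, Zap70, Lat and Prkcq among them, did not pass the test.

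Cd163l1, Tec, Blk and Ptpn6 kept their calls under a slide block and without each array in turn. Blk's call is not read as support, and no promoter window of Blk was available. The promoters of 4 members are printed because Gfi1 binds the core AATC: Cd163l1, Tec and Ptpn6, and Txk as the neighbour of Tec. Each is the RefSeq window on GRCm38.p6 of 250 bases before and 50 bases after the annotated start, read on the gene's own strand from 5′ to 3′, with every AATC or its complement GATT in capitals. Cd163l1 lies on the plus strand at chr7:140218017-140218316, Tec on the minus strand at chr5:72868399-72868698, Txk on the minus strand at chr5:72752728-72753027 (the first of its 2 annotated starts) and Ptpn6 on the minus strand at chr6:124738660-124738959.
Cd163l1: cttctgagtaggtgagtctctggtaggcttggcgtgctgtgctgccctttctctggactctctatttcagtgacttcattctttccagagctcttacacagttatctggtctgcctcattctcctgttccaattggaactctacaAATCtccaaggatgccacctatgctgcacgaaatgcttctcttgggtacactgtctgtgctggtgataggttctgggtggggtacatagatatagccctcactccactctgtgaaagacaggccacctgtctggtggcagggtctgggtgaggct
Tec: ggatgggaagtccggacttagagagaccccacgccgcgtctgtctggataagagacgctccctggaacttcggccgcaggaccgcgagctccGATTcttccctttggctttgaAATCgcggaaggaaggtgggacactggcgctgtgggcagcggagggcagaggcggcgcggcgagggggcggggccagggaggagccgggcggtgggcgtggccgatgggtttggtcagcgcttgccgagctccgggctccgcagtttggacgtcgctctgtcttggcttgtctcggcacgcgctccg
Txk: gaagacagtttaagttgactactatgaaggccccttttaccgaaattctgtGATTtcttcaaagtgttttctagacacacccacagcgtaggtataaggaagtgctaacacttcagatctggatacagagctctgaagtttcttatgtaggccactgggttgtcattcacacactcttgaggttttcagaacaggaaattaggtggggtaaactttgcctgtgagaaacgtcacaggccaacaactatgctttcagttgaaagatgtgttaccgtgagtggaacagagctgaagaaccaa
Ptpn6: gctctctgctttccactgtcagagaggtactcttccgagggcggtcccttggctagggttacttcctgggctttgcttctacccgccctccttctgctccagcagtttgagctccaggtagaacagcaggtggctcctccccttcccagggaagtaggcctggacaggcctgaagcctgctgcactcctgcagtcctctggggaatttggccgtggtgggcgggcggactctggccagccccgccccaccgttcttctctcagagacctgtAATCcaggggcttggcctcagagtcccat
Cd163l1, Txk and Ptpn6 each hold the core 1 time and Tec holds it 2 times, so the core stands in windows of genes that rose and of one that fell. AATC on either strand is common: 73.1% of all 32851 windows of this length hold it, against 59.6% of the 52 windows of members. The table had windows for 35 of the 42 members, and 26 of the 35 had the core in some window. Tec and Txk are neighbours on chromosome 5 with 0 protein-coding genes between them, and so are Cd3g, Cd3d and Cd3e on chromosome 9. A match is a description of the letters in the window and not a measured site.

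Gfi1 itself, the targeted gene, read 4.28 ± 0.02 on knockout arrays and 2.02 ± 0.23 on wild-type arrays (log2 ratio, SD, n = 3 and 4), 4.77-fold higher in the knockout. Where its probe lies relative to the cassette is not known here, so this value checks no label. Probes well above background in the sample channel made up 70.6% to 80.9% of all probes on knockout arrays and 67.4% to 80.4% on wild-type arrays. Correlations over all tested genes were 0.969 to 0.980 between knockout arrays, 0.979 to 0.989 between wild-type arrays and 0.942 to 0.969 between a knockout and a wild-type array. The arrays lay on 3 slides, each scanned at one time: slide 1 held knockout 1 and wild type 4, slide 2 held knockout 2, knockout 3 and wild type 1, and slide 3 held wild types 2 and 3. Slide and genotype are therefore partly mixed, and values within slides are given beside the results they touch. Knockout 3 was marked by the scanner software for evaluation. Wild type 4 was marked as in range, but earlier work on these files had put its background in doubt, which was not tested here. Counts without both are therefore also given.

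The groups did not overlap for 13 of the 40 tested members, 9 higher and 4 lower, where the same held for 18.3% of all tested genes (8.08% higher and 10.2% lower). The median difference of the members was 0.06 on the log2 scale against -0.01 over all genes, and the median size of the difference was 0.31 against 0.11. Since the members were listed with earlier results known, these figures are not an independent comparison with all genes. Under a slide block, 4 members stayed past the threshold (Cd163l1, Tec, Blk and Ptpn6), where 1.89% of all genes were called, 0.919% higher and 0.967% lower. Without wild type 4 and knockout 3 the count was 9, 7 higher and 2 lower, with Cd3d added and Vav3 and Skap1 lost, where 4.49% of all genes were called, 1.91% higher and 2.58% lower. The direction of calls over all genes depended on the scaling: 43.6% were higher here, 55.5% with arrays centred on their median and 84.0% with no normalization within arrays.

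**Figure D1:**
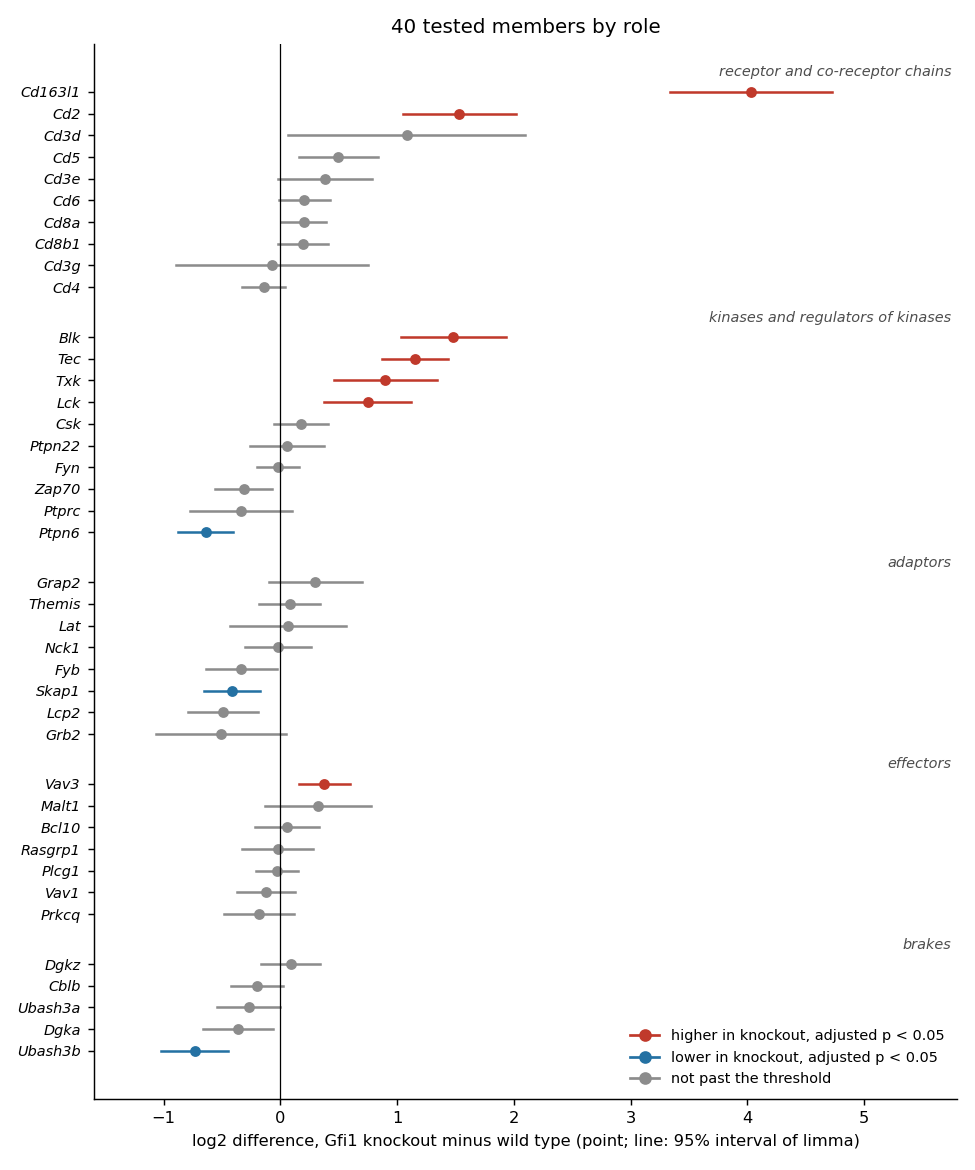
Log2 difference (x axis, Gfi1 knockout minus wild type) of the 40 tested members, grouped by role down the page. Points are the estimates and lines the 95% intervals of limma, coloured where the adjusted p was under 0.05. Cd163l1 stands at 4.03, beyond every other member, and most points lie near 0.

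The group of receptor and co-receptor chains held the largest single change, that of Cd163l1. Cd163l1 is listed in this group but is a scavenger receptor family member and not a CD3, CD4 or CD8 chain. Cd163l1 and Cd2 rose, none of the 10 tested members of the group fell, and 8 were not called. The tested CD3, CD4 and CD8 chains were among those not called. In whole-cell-population RNA such as this, fewer or more cells of a type and less or more RNA per cell cannot be told apart.

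Cd163l1, a scavenger receptor cysteine-rich family member known from gamma-delta T cells, had log2 ratios of 4.91, 6.23 and 5.37 on knockout arrays 1 to 3, against 0.98, 1.32, 1.62 and 1.96 on wild-type arrays 1 to 4. Every knockout array lay above every wild-type array by several log2 units. Cd163l1 averaged 5.50 ± 0.67 in knockout ILC2s and 1.47 ± 0.42 in wild-type ILC2s (SD, n = 3 and 4). The difference was 4.03 ± 0.31 (SE) with a 95% interval of 3.34 to 4.72, and limma's adjusted p was 0.000113. Slide 1 alone gave 2.95 and slide 2 alone gave 4.82. In the sample channel alone the gene was 21.5-fold higher, and the reference channel differed by 0.39 in the same direction. Its single probe was above background on all 7 arrays.

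Cd2, an adhesion receptor of T and NK cells, read 0.16, 0.43 and 1.21 in the knockout, against -1.04, -0.92, -1.03 and -0.73 in the wild type. The 4 wild-type arrays lay close together and the knockout arrays spread, with knockout 3 highest. Cd2 rose by 1.53 ± 0.22 (interval 1.05 to 2.02, limma adjusted p = 0.0029), which is 2.89-fold. With no offset in the background correction the difference was 2.42, and by the log ratio that the scanner software wrote it was 3.49 (adjusted p = 0.024). All 3 knockout arrays read this probe above background, and 2 of the 4 wild-type arrays did. The probe entered the test only through the knockout arrays, where it was high, so its call is not read as support. A second Cd2 probe, above background on all arrays, averaged 0.38 in the knockout and 0.11 in the wild type, a difference of 0.27 that was not called (limma, adjusted p of 0.0993 over all probes). The first probe's difference was 1.45 under a slide block, with an adjusted p of 0.0616.

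Cd3e, Cd3g, Cd3d and Cd247 encode the signalling chains of the receptor. Cd3d read 2.88, 4.03 and 3.59 in the knockout, against 2.11, 1.61, 2.23 and 3.73 in the wild type. Wild types 1 to 3 lay below every knockout array, while wild type 4 lay among them. The Cd3d difference was 1.08 with an interval of 0.065 to 2.10 and was not called (limma adjusted p = 0.222). Without wild type 4 it was 1.52 with an adjusted p of 0.0211, and within slide 1, which sets knockout 1 against wild type 4, it was -0.85, against 1.70 within slide 2. The Cd3d values thus rest on which arrays are used.

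Cd3e read -1.04, -0.29 and -1.13 in the knockout, against -1.20, -1.17, -1.26 and -1.18 in the wild type. The groups did not overlap, but knockouts 1 and 3 lay next to the wild-type arrays and knockout 2 stood alone. The difference was 0.39 (interval -0.016 to 0.79, limma adjusted p = 0.279), and without knockout 2 it was 0.12. Cd3g read 0.63, 2.19 and 1.69 in the knockout, against 0.95, 1.36, 1.99 and 2.01 in the wild type. The Cd3g groups overlapped, knockout arrays being both the lowest and the highest, with a difference of -0.07 and a wide interval of -0.89 to 0.75. The 3 neighbouring CD3 genes therefore gave differences of 1.08, 0.39 and -0.07 that the test could not tell from 0.

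Cd247, the zeta chain, was too dim to be tested. It read 0.30, 0.30 and 0.28 in the knockout, against 0.04, 0.05, 0.01 and 0.09 in the wild type, and was above background on 1 of 3 knockout arrays and 1 of 4 wild-type arrays. These ratios of dim spots are drawn towards 0 by the background correction.

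None of the co-receptors and remaining surface chains was called. Cd8a, the alpha chain of CD8, read 0.69, 0.54 and 0.41 in the knockout, against 0.39, 0.33, 0.34 and 0.33 in the wild type. The groups did not overlap, yet the difference was 0.20 and was not called (limma adjusted p = 0.243). A second Cd8a probe, above background on 1 knockout array and 1 wild-type array, was too dim to be tested. Cd8b1, the beta chain of CD8, differed by 0.19 with an interval of -0.024 to 0.41. Cd4 averaged 0.33 ± 0.05 in the knockout and 0.48 ± 0.09 in the wild type, a difference of -0.14 (interval -0.32 to 0.043), and its second probe gave 0.03. For CD4 and both CD8 chains the interval stayed within 1 log2 unit of 0. Cd5, an inhibitory receptor whose level follows signal strength in T cells, read -2.06, -1.74 and -1.48 in the knockout, against -2.04, -2.39, -2.44 and -2.14 in the wild type. Its difference of 0.50 had an adjusted p of 0.0863, and without knockout 1, the lowest of the knockout arrays, it was 0.65 with an adjusted p of 0.0283. Cd6, a receptor related to Cd5, differed by 0.20 (limma adjusted p = 0.296), and its second probe by 0.55 (adjusted p over probes = 0.0842).

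**Figure D2:**
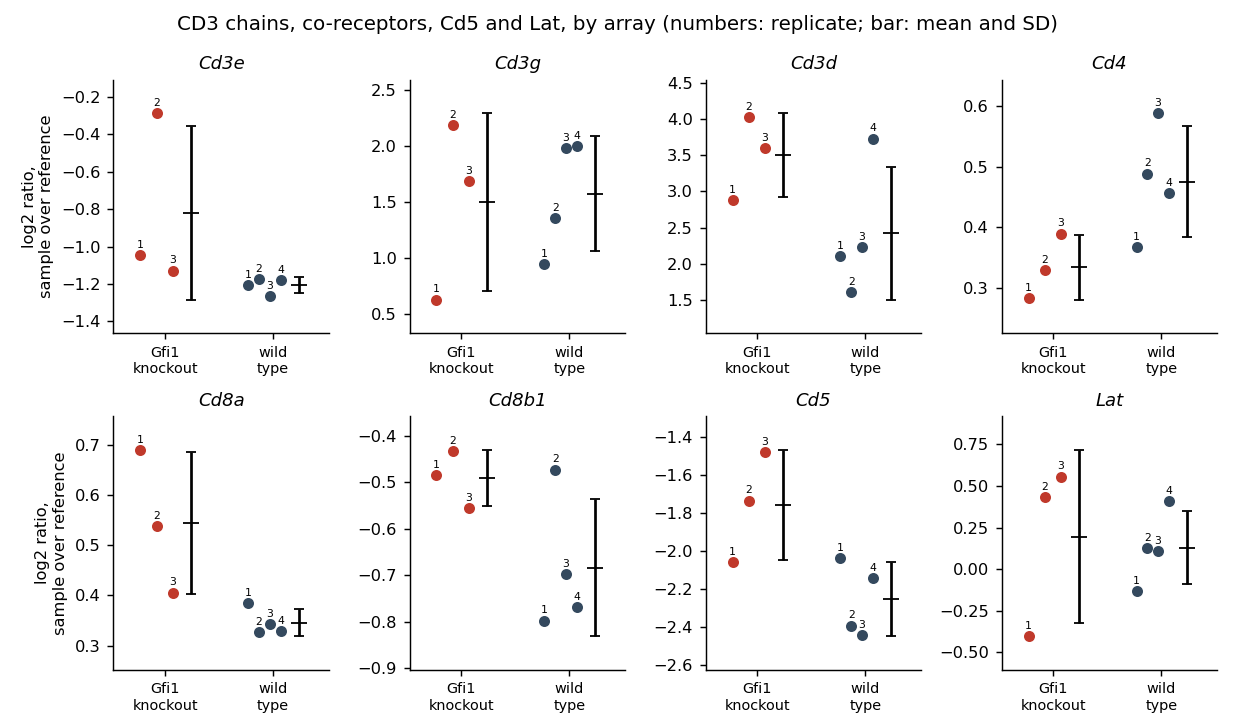
Log2 ratio of sample over reference (y axis) on each array for the CD3 chains, co-receptors, Cd5 and the adaptor Lat, with Gfi1 knockout arrays left and wild-type arrays right. Numbers name the replicate and bars give mean and SD. Wild-type array 4 lies among the knockout arrays for Cd3d, and knockout array 2 alone stands apart for Cd3e.

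Among the kinases and regulators of kinases, Blk, Tec, Txk and Lck rose, Ptpn6 fell and 5 of the 10 were not called. Tec and Txk belong to the Tec family of kinases, and Blk and Lck to the Src family.

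Blk, a Src family kinase of B cells and of gamma-delta T cell subsets, read 1.31, 2.31 and 1.5 in the knockout, against 0.27, 0.25, 0.18 and 0.20 in the wild type. The wild-type arrays lay very close together, and all knockout arrays stood well above them, knockout 2 highest. The difference was 1.48 ± 0.20 (interval 1.03 to 1.93, limma adjusted p = 0.00242), a 2.79-fold rise. With no offset in the background correction it was 2.36, and by the log ratio that the scanner software wrote it was 2.99 (adjusted p = 0.0326). Only wild-type detection was partial, on 2 of 4 arrays, so the wild-type level was close to the detection limit. Blk entered the test only through the knockout arrays, where it was high, so its call is not read as support. Within slides 1 and 2 the differences were 1.12 and 1.63, and the block on slide gave an adjusted p of 0.0405.

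Tec, the founding member of its family, read 0.52, 0.90 and 0.61 in the knockout, against -0.33, -0.41, -0.41 and -0.74 in the wild type. All knockout values were positive and all wild-type values negative. The same dye carried the sample on every array, so this sign does not place Tec above or below the reference RNA's level. Tec rose by 1.15 ± 0.13 (interval 0.87 to 1.44, limma adjusted p = 0.000804), or 2.22-fold. A second Tec probe gave 1.07 with an adjusted p over probes of 0.000701. Slides 1 and 2 gave 1.26 and 1.09, and the call held under a slide block (adjusted p = 0.00765).

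Txk, a Tec family kinase of resting T cells, read -2.0, -1.59 and -2.27 in the knockout, against -2.95, -2.50, -2.73 and -3.24 in the wild type. The groups did not overlap, with wild type 2 nearest to the knockout arrays. Its probe was above background on all 3 knockout arrays and on no wild-type array, so the wild-type value is a bound. In the sample channel Txk was at least 2.01-fold higher in the knockout, with normalised log2 signals of 7.04 in the knockout and at most 6.03 in the wild type. That channel has no dye swap and is open to dye bias. Txk met the filter of 3 detected arrays only through the knockout, where it was high, so its call (limma adjusted p = 0.0237) is not read as support. The call was lost without knockout 2 (adjusted p = 0.0806), without wild type 1 (0.0607), without wild type 4 (0.0565) and under a slide block (0.0528).

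Lck, the kinase that starts signalling from the receptor, read -1.79, -1.68 and -1.27 in the knockout, against -2.45, -2.49, -2.43 and -1.94 in the wild type. Wild types 1 to 3 lay together, and wild type 4 stood close to the knockout arrays. Lck rose by 0.75 ± 0.16 (interval 0.38 to 1.12, limma adjusted p = 0.0245), or 1.68-fold. Slide 1 alone gave 0.15, slide 2 alone gave 0.97, and a slide block gave 0.62 with an adjusted p of 0.288. Without knockout 2, knockout 3, wild type 1, wild type 2 or wild type 3 the adjusted p was 0.0573, 0.0621, 0.0639, 0.0741 and 0.064, in that order.

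Ptpn6, the phosphatase SHP-1 that dampens antigen receptor signalling, read 2.02, 2.17 and 2.03 in the knockout, against 2.79, 2.77, 2.46 and 2.83 in the wild type. The knockout arrays lay close together and all below the wild-type arrays. Ptpn6 fell by 0.64 ± 0.11 on the log2 scale, 1.56-fold (limma adjusted p = 0.0061). Slide 1 alone gave -0.81 and slide 2 alone gave -0.69, and the block on slide left it past the threshold (adjusted p = 0.0414). With no normalization within arrays it was -0.37 and not called (adjusted p = 0.176).

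The other 5 had small differences. Fyn, the second Src family kinase of the receptor, averaged 0.61 ± 0.09 in the knockout and 0.63 ± 0.06 in the wild type, with an interval of -0.20 to 0.16 for the difference. Zap70 averaged 3.01 ± 0.13 in the knockout and 3.32 ± 0.16 in the wild type. Its difference of -0.32 (interval -0.56 to -0.074) was not called over all genes (limma adjusted p = 0.128), and a second probe gave -0.25. Csk, which switches Src kinases off, differed by 0.18 (interval -0.056 to 0.41). Ptpn22, a phosphatase that acts with Csk, differed by 0.06 (interval -0.26 to 0.38). Ptprc, the phosphatase CD45 that primes Lck, differed by -0.34 (interval -0.78 to 0.097).

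**Figure D3:**
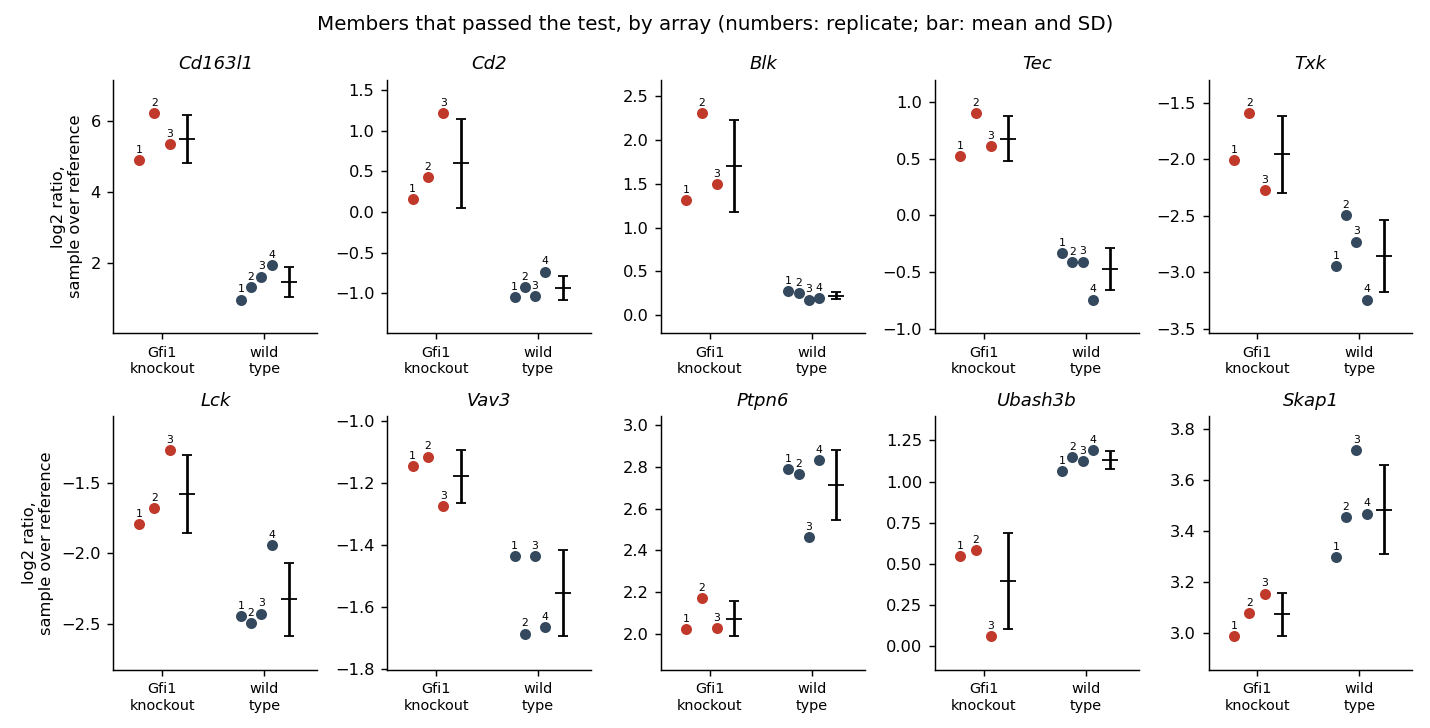
Log2 ratio of sample over reference (y axis, a scale of its own in each panel) on each array for the 10 members that passed the test, Gfi1 knockout left and wild type right. Numbers name the replicate and bars give mean and SD. In no panel do the groups overlap, and wild-type array 4 is the nearest to the knockout arrays for Lck.

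Of the 8 adaptors tested, Skap1 fell and 7 were not called, with a median difference of -0.18. Skap1, which couples the receptor to integrin adhesion together with Fyb, read 2.99, 3.08 and 3.15 in the knockout, against 3.30, 3.45, 3.72 and 3.47 in the wild type. The groups did not overlap, but the gap between them was narrower than the spread of the wild-type arrays. Skap1 fell by 0.41 ± 0.11 on the log2 scale, 1.33-fold (limma adjusted p = 0.0485), and the call was kept only without wild type 1 among the 7 fits with an array left out (highest adjusted p 0.119, without knockout 2). Within slides its differences were -0.48 and -0.18, and with no normalization within arrays it was -0.13 (adjusted p = 0.533).

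Lcp2, the adaptor SLP-76, read 2.68, 2.15 and 2.30 in the knockout, against 2.78, 2.78, 3.07 and 2.84 in the wild type. Every knockout array lay below every wild-type array, but the difference of -0.49 (interval -0.79 to -0.19) missed the threshold with a limma adjusted p of 0.0568. Without knockout 1, the highest knockout array, it was -0.64 with an adjusted p of 0.0121.

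Lat, the membrane adaptor on which the signal assembles, read -0.40, 0.43 and 0.56 in the knockout, against -0.13, 0.13, 0.11 and 0.41 in the wild type. Knockout 1 was the lowest and knockout 3 the highest of all 7 arrays, so the difference of 0.07 carries an interval of -0.43 to 0.56. Grb2, which links to Ras through Sos1, read 0.73, 0.52 and -0.45 in the knockout, against 0.71, 0.69, 1.05 and 0.65 in the wild type. Its difference of -0.51 (interval -1.06 to 0.045) was -0.15 without knockout 3, the lowest of all arrays, and its second probe gave -0.17. Grap2, also called Gads, differed by 0.30 (interval -0.10 to 0.70). Nck1, an adaptor to the actin skeleton, differed by -0.02 (interval -0.30 to 0.26), and Themis, known from thymocyte selection, by 0.08 (interval -0.18 to 0.34). A second Themis probe was above background on no array. Fyb differed by -0.33 (interval -0.64 to -0.028, limma adjusted p = 0.208) on one probe and -0.34 on the other.

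Trat1, which stabilises the receptor at the T cell surface, was too dim to be tested. It read 0.20, -0.18 and 0.27 in the knockout, against 0.20, 0.08, 0.12 and 0.11 in the wild type, and was above background on 2 of 3 knockout arrays and on none of the 4 wild-type arrays.

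Among the 7 effectors, Vav3 rose and 6 were not called, with a median difference of -0.02. Vav3, an exchange factor for small GTPases, read -1.14, -1.11 and -1.27 in the knockout, against -1.43, -1.69, -1.44 and -1.66 in the wild type. The groups did not overlap, and the gap between them was about as wide as the spread within each. Vav3 rose by 0.38 ± 0.10 (interval 0.16 to 0.59, limma adjusted p = 0.0459), 1.3-fold, and the call was lost in all 7 fits with an array left out (adjusted p of 0.0522 without knockout 3 to 0.14 without knockout 2). Under a slide block its adjusted p was 0.341. By the log ratio that the scanner software wrote, Vav3 differed by 0.80 (adjusted p = 0.0339).

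Vav1, the form of this factor found throughout blood cells, differed by -0.12 (interval -0.37 to 0.13), and its second probe by 0.07. Plcg1, the phospholipase that makes the second messengers, averaged 0.40 ± 0.08 in the knockout and 0.42 ± 0.07 in the wild type, with an interval of -0.21 to 0.15. Prkcq, the protein kinase C theta that leads to NF-kappaB, averaged 4.95 ± 0.16 in the knockout and 5.13 ± 0.22 in the wild type, with an interval of -0.48 to 0.11. These 3 genes were well above background on all 7 arrays in both genotypes. Bcl10, which acts in a complex with Malt1 below Prkcq, differed by 0.06 (interval -0.22 to 0.33). Malt1 read -0.50, -1.21 and -0.32 in the knockout, against -1.05, -1.27, -0.77 and -0.91 in the wild type. Its interval of -0.13 to 0.78 is among the wider ones, with knockout 2 lying among the wild-type arrays. Rasgrp1, which activates Ras, differed by -0.02 (interval -0.33 to 0.28).

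Of the 5 brakes, Ubash3b fell and 4 were not called, with a median difference of -0.27. Ubash3b, the phosphatase Sts-1 that removes phosphate from Zap70 and its relative Syk, read 0.55, 0.58 and 0.06 in the knockout, against 1.06, 1.15, 1.12 and 1.19 in the wild type. The wild-type arrays lay close together and above all knockout arrays, of which knockout 3 was lowest. Ubash3b fell by 0.73 ± 0.13 on the log2 scale, 1.66-fold (limma adjusted p = 0.00786), and kept its call in all 7 fits with an array left out. Within slides it was -0.64 and -0.74, and the block on slide gave an adjusted p of 0.106. Ubash3a, the relative of Ubash3b that is found mostly in T cells, differed by -0.27 (limma adjusted p = 0.255). Dgka and Dgkz, the kinases that remove diacylglycerol, differed by -0.36 (limma adjusted p = 0.165) and 0.09 (0.752). Cblb, a ubiquitin ligase that restrains activation, differed by -0.20 (limma adjusted p = 0.327).

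**Figure D4:**
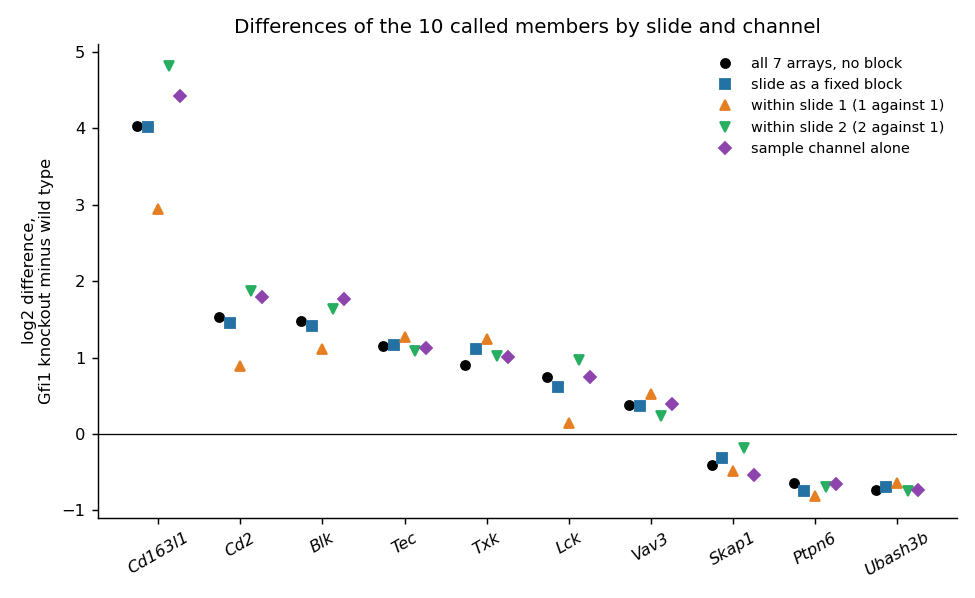
Log2 difference (y axis, Gfi1 knockout minus wild type) of the 10 called members over all 7 arrays, under a slide block, within slide 1 (1 array against 1), within slide 2 (2 against 1) and in the sample channel alone. Every estimate keeps its sign, and Lck shows 0.15 within slide 1 against 0.97 within slide 2.

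No called member had a different sign within either slide. Cd163l1, Cd2, Blk, Lck and Ubash3b differed more within slide 2, and Tec, Txk, Vav3, Ptpn6 and Skap1 more within slide 1. With 1 or 2 arrays a group these within-slide values have no test. Of the 10 called members, 6 kept their call in all 7 fits with an array left out: Cd163l1, Tec, Blk, Cd2, Ptpn6 and Ubash3b. Blk and the first Cd2 probe were detected on 2 of 4 wild-type arrays. They met the filter of 3 detected arrays only with the knockout arrays counted, where they were high. Their calls are therefore not read as support. With only probes above background on all 7 arrays, Blk was not tested and Cd2 was not called. Knockout 2 was the highest knockout array for 17 of the 40 tested members, knockout 3 for 17 and knockout 1 for 6.

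Of the 30 members that were not called, 28 had a 95% interval that stayed within 1 log2 unit of 0, the exceptions being Cd3d and Grb2. A p that misses the threshold does not show that such a gene did not differ.

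The antigen receptor itself could not be read: none of the 8 constant region genes of the alpha, beta, gamma and delta chains matched a probe accession through the RefSeq table. Of 105 other genes of the pathway, 102 were tested, of which 10 rose and 15 fell (median difference -0.06). Over all tested genes 3.28% were called higher and 4.24% lower. Under a slide block 4 of the pathway genes rose and 6 fell, where 0.919% of all tested genes were called higher and 0.967% lower. The 12 with the smallest p included the kinase Btk, which averaged -2.17 ± 0.14 in the knockout and -0.82 ± 0.11 in the wild type (SD, n = 3 and 4) and fell by 1.35. Btk was above background on 2 knockout arrays and on all 4 wild-type arrays. It entered the test only through the wild-type arrays, where it was high, so its call is not read as support. Btk is a relative of Tec, which rose, and of Txk, whose call is likewise not read as support. The other falls among the 12 were Itpr2, a calcium release channel (by 1.17), Tespa1, which is known from T cell development (by 0.96), Dgkd, a diacylglycerol kinase (by 0.76), Sos1, an exchange factor for Ras (by 0.71), Ptpn2, a phosphatase (by 0.68), and Mapk3, the kinase ERK1 (by 0.54). The rises were the adaptors Sla2 (0.95) and Lime1 (0.95), the transcription factor Nfatc2 (0.85), the Cd2-binding scaffold Cd2ap (0.71) and the receptor Slamf6 (0.52). Of the 12, Cd2ap, Nfatc2, Ptpn2 and Mapk3 missed the threshold under a slide block (limma adjusted p of 0.078, 0.0824, 0.0508 and 0.126).

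Markers of other cells were measured on the same arrays, since a sorted population can hold other lymphocytes. All 16 ILC2 markers were above background on all 7 arrays, and their summed sample-channel signal was 680920 to 872940 in the knockout and 913890 to 1265200 in the wild type. In limma Il17rb, the IL-25 receptor chain, rose by 1.85, while Il1rl1, the IL-33 receptor chain, fell by 1.89, Gata3 by 0.93, Ly6a by 0.72 and Areg by 0.42, and under a slide block Gata3 and Areg were not called (adjusted p = 0.138 and 0.242). Of 20 T cell markers, 17 matched a probe and 15 were tested, 13 of the 20 being members. Sh2d1a, detected on all 3 knockout arrays and no wild-type array, was called higher and Tespa1 fell. Sh2d1a met the filter of 3 detected arrays only through the knockout, where it was high, so its call is not read as support. Under a slide block Sh2d1a was not called (limma adjusted p = 0.0686). The summed signal of the 17 markers was 16686, 26649 and 26608 on knockout arrays 1 to 3. On wild-type arrays 1 to 4 it was 17351, 18370, 23235 and 27943. The ranges overlapped almost fully, with knockout 1 lowest and wild type 4 highest of all arrays. The sum holds the CD3 chains themselves, and the part of T cells in their values was not tested. Of the 17, 14 to 17 were above background on a knockout array and 13 to 15 on a wild-type array. Without the members, the 4 T cell markers that matched a probe summed to 5067.2 to 8834.1 in the knockout and 6207.5 to 10110 in the wild type. With Foxp3 and Sox13 added, the 6 defining T cell genes outside the members gave 6029.8 to 9632.1 in the knockout and 7066.5 to 10918 in the wild type. Of these 6, 1 was called higher (Sh2d1a, not read as support) and 1 lower (Tespa1). Cd28, a defining co-receptor of T cells that ILC2s can also carry, averaged 2.13 ± 0.47 in the knockout and 2.10 ± 0.37 in the wild type. In the sample channel Sh2d1a was at least 1.6-fold higher in the knockout.

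Gamma-delta T cell markers, a list that holds Cd163l1 and Blk, were higher in the knockout in summed signal. Of 11 markers, 7 matched a probe and were tested, and 4 rose, Cd163l1, Blk and Zbtb16 among them, with a median difference of 0.65, and 2 of the 4, Cd163l1 and Blk, stayed called under a slide block. Their summed signal was 5769.8 to 18684 in the knockout and 1475.9 to 1803.5 in the wild type. Without Cd163l1 and Blk, the 5 remaining markers summed to 1457.8 to 2019.4 in the knockout and 1046.9 to 1233.3 in the wild type. All 5 were above background on each knockout array, against 2 to 5 on a wild-type array. Zbtb16 rose by 0.45 (limma adjusted p = 0.05, just under the threshold; under a slide block 0.374). Sox13 differed by 0.20 and Il23r by 0.64, and neither was called (limma adjusted p = 0.238 and 0.0628). The delta and gamma constant genes that define these cells matched no probe, and the part of such cells in the rise of Cd163l1 and Blk was not tested. Blk's call, as stated above, is not read as support.

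Of the lists for further cell types, none of the 8 B cell markers was called, with summed signals of 14350 to 17424 in the knockout and 16531 to 20015 in the wild type. None of the 4 tested NK cell markers was called, and Ncr1, Klra8 and Klrk1 were above background on no array. The NK list summed to 158650 to 210430 in the knockout and 75386 to 208610 in the wild type. Of 5 tested myeloid markers Ccr2 rose, a call that a slide block ended (limma adjusted p = 0.0928), with sums of 3720 to 3898 in the knockout and 2961.9 to 3448.3 in the wild type. Of 4 tested mast cell and basophil markers Hdc fell by 0.36 and Cpa3 by 0.51, calls that ended under a slide block (limma adjusted p = 0.22 and 0.249) and in 4 and 6 of the 7 fits with an array left out. Their list had sums of 1105.9 to 1151 in the knockout and 1101.5 to 1354.9 in the wild type, while Ms4a2 and Fcer1a were above background nowhere.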

How the data were processed

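The deposited scanner files hold linear spot intensity values. Per the file headers Agilent Feature Extraction 11.0.1.1 wrote them, and per the submitters' processing notes the version was 10.7.3.1. The deposited files also held a log10 ratio of red over green, background-subtracted and dye-normalized per the file headers, and the deposited value table held its log2 form. All values of that table lay within 0.001 of the scanner ratio on the log2 scale, so it is not centred (column medians 0.163 to 0.254), and it served as an alternative. No sample was imputed or dropped.

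Median signals were corrected with normexp (offset 50) and loess within arrays, with control spots at weight 0 and 2597 spots with outlier flags left out. The tools were limma 3.58.1 and R 4.3.3, and spots of one probe entered as their mean. Probes were named through accessions in a RefSeq table (GRCm38.p6): 26581 of 39429 had 1 gene, 12848 had none and none had several. Tested probes had a sample channel that the scanner software called well above background on 3 arrays or more, with 2 or more values in each group, and the probe with the brightest sample channel stood for its gene. This gave 25346 genes, 88 of them with a missing value that the fit left out, and none saturated in the sample channel.

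Groups were compared with lmFit and eBayes over all tested genes, with Benjamini-Hochberg adjustment, a threshold of 0.05 and no block. A log2 difference of ratios is knockout minus wild type, and a fold is 2 to its power. The offset draws dim ratios towards 0. Slide is the array barcode, as in the file headers. The fit was tested on simulated data. The number of arrays, 3 against 4, limits precision, and each is a separate pool of mice, so spread between single mice is not seen. A lower bound on a fold takes, for the dim group, whichever is higher, its own signal or the array's lowest detected signal, after loess and Aquantile.

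The named genes were all 42 members, Gfi1, up to 12 called pathway genes with the smallest p, and the marker lists for T, gamma-delta T, B, NK, myeloid and mast cells and ILC2s. Cd28 and the lists without members were picked with values known. Some genes of the lists are not reported here. Members and lists were chosen with earlier results of these data known. Alternatives covered background correction, normalization, filters, probe choice, outlier flags, the variance model, a minimum change, slide, replicate number and arrays left out. Promoter windows come from a RefSeq table. Figures were drawn with matplotlib 3.10.9.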

Additional observations from a re-analysis of the deposited data

Results flagged for a closer look

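Among the wild-type arrays, the gap of the outermost array to its nearest neighbour, as a share of the whole range, passed Dixon's critical value for 4 arrays in 2 of the 40 tested members. For Lck this share was 0.877, with wild type 4 at -1.94 and the other wild-type arrays at -2.49 to -2.43. For Grb2 it was 0.852, with wild type 3 at 1.05 and the other wild-type arrays at 0.65 to 0.71. Chance marks about 1 in 20 such groups, and 40 members were examined. The 3 knockout arrays are too few for this rule.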

How the results depend on the processing

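With arrays left out, the count of called genes ran from 1137, without wild type 4 and knockout 3, to 1898, without knockout 1, against 1905 with all arrays. It was 1264 without knockout 2 and 1268 without wild type 4. For the members the count ran from 6, without knockout 2, to 10, without knockout 1, against 10 with all arrays, and fewer arrays were tested in each such fit. A minimum log2 change of 0.5 asks for more by construction and left 210 genes, 3 of them members (Cd163l1, Tec and Blk). Slide as a fixed block left 478 genes and 4 members. Slide 3 held only wild types 2 and 3, so under this block it adds nothing to the estimated genotype difference. A call lost under the block therefore also reflects fewer informative arrays, and other causes were not tested. Under the other settings 7 to 11 members were called. Cd163l1, Tec and Blk kept their calls under each alternative that tested them, and no called member changed sign under any of the 24. Blk's call is not read as support, since Blk entered the test only through the knockout arrays. Deviations of same-numbered samples correlated at 0.0363, 0.24 and 0.0208, and those of differently numbered samples at -0.24 to 0.27. With so few arrays these values cannot decide whether shared replicate numbers pair the samples. The replicate block over numbers 1 to 3 gave 1081 genes and 9 members, with Cd3d added and Vav3 and Skap1 lost. Crossing of numbers was not tried. No normalization within arrays moved the median of all genes by 0.22.

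In all, 14 members that were not called changed sign under some alternative, each without a call. With no normalization within arrays Cd3g stood at 0.23, Cd4 at 0.12, Fyn at 0.17, Plcg1 at 0.19, Vav1 at 0.19, Nck1 at 0.27, Prkcq at 0.086, Rasgrp1 at 0.27 and Cblb at 0.048, most of them close to that shift of the median. With median centring Cd3g was 0.025, Nck1 0.064 and Rasgrp1 0.064, and in the sample channel alone Cd3g was 0.057, Plcg1 0.041 and Rasgrp1 0.033. The replicate block gave Cd3g 0.070, Plcg1 0.00066, Themis -0.0028, Rasgrp1 0.070 and Ptpn22 -0.00039. Slide as a fixed block gave Nck1 0.011, as a random block Rasgrp1 0.0012, and with no spot left out Themis was -0.029. With arrays left out Cd3g ran from -0.42 to 0.36, Fyn from -0.072 to 0.025, Lat from -0.11 to 0.36, Plcg1 from -0.071 to 0.0050 and Nck1 from -0.14 to 0.14. Themis ran from -0.0028 to 0.15, Bcl10 from -0.11 to 0.15, Rasgrp1 from -0.14 to 0.10, Ptpn22 from -0.0068 to 0.19 and Dgkz from -0.018 to 0.17. The causes were not tested. Signal over background limited Cd247 and Trat1, which were not tested, and Txk, whose wild-type level is a bound.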
